A study of Mus musculus with 2 samples.

Results

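The integrin genes described here, *Itga2*, *Itga3*, *Itga5*, *Itgav*, *Itgb1*, *Itgb5*, *Itgb6* and *Itgb8*, are 8 of the 20198 genes in the count table. They were chosen by name, as subunits of the receptors with which epithelial cells hold and crawl over extracellular matrix, and their values were read per deposited cluster and library. The study compared mouse corneas before and after an epithelial wound by droplet single-cell RNA sequencing. UW came from normal, unwounded corneas and W from corneas taken 24 h after the central epithelium had been scraped off, and each library pooled 4 mice. The mice were males of 6 to 8 weeks, of a strain not given in the sources used here, both eyes were used (8 corneas a library), and no transgene is named. The wound was marked with a trephine of 2.5 mm, and by the methods wounding came with pentobarbital, topical procaine, fluorescein and ofloxacin, whose part cannot be told apart from that of the wound. Nothing in the labels marks a cell as migrating, so the genes were followed over all clusters and no cells were picked as migrating cells.

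With 1 library per condition there was no replicate, and no test of the condition could be made. Levels are CPM, that is, unique molecular identifiers (UMIs) of a gene summed over the cells of a cluster in 1 library, scaled to 1000000 UMIs of those cells. The reads lie at the 3′ ends of transcripts and were not divided by length, so levels were compared between cells and not between genes. Each level and each log2 ratio of W over UW has an exact 95% interval that covers counting error only, not the spread between mice. A gene was called higher or lower in W at a ratio of 2 or more, provided it had 20 counts over both libraries and 10 CPM in one of them.

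Integrins are membrane receptors built from one alpha and one beta chain. The chain pair sets the ligand: the alpha 2 chain with beta 1 binds collagen, alpha 3 with beta 1 binds laminin, alpha 5 with beta 1 binds fibronectin, and alpha v pairs with beta 1, beta 5, beta 6 or beta 8 to bind fibronectin, vitronectin and the latent form of TGF-beta. In stratified epithelia most integrins sit in the basal layer, next to the basement membrane, and the cells at a wound margin are known to alter the set they carry.

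The libraries held 16450 UW and 12417 W cells, and the median cell had 22014 UMIs in UW and 20290 in W. Of the 17 deposited clusters, 10 were epithelial by their markers and had at least 50 cells in each library. Together they numbered 13501 cells in UW and 8507 in W. Cluster 3 had the highest score for basal layer markers and is called basal-like. Its score of 8.99 was close to the 8.98 of cluster 9, which is called limbal-like since *Wfdc18* led it, and all but equal to its own score of 8.99 for suprabasal markers. The basal keratin *Krt14* was at 1256 CPM in cluster 3 of UW and 14011 in W, and the corneal keratin *Krt12* at 29083 and 11905. Cluster 8 was led by mitotic genes and cluster 11 by S phase genes, and both also carried basal layer markers, with scores of 8.74 and 8.76. *Itga6*, the partner of beta 4 in hemidesmosomes, stood between 482 and 539 CPM in these 4 clusters of UW. Clusters 1, 4 and 2 lay on the suprabasal side, cluster 6 (*Psca*, *Krt78*, *Omp*) was superficial-like, cluster 7 was led by *Lce3a*, and cluster 5 (*Krt4*, *Krt19*) was conjunctival-like. The libraries shared 52 cell barcodes, and the results without those cells are given in the closing section.

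In the GRCm38 assembly with GENCODE M21 models, *Itga2* lies at chr13:114833081-114932100 and *Itga3* at chr11:95044474-95076801, both on the minus strand. *Itgb1* lies on the plus strand at chr8:128685654-128733200, and *Itgb6* on the minus strand at chr2:60598292-60722643. No other gene model overlapped these 4 genes. *Itgav* at chr2:83724397-83806916 and *Itgb5* at chr16:33829665-33949338 are on the plus strand, and *Itga5* at chr15:103344286-103366763 and *Itgb8* at chr12:119158022-119238802 on the minus strand. *Itgav* overlaps *Gm13684* and *Dnmt3l-ps1* on the other strand, and *Itga5* holds *Mir6963* on its own strand. The promoters of the 3 genes that share the basal-like pattern described next, and of *Itgb6*, which does not, are shown for comparison. RefSeq promoters (GRCm38.p6, 250 bases before to 50 after the start, read along the gene) were found for all 8 genes. Capitals mark matches on either strand to 4 motifs, namely AP-1 (TGANTCA), TEAD (GGAATG), SP and KLF (GGGCGG) and the TATA box (TATAAA).
*Itga2*, chr13:114932051-114932350, minus strand: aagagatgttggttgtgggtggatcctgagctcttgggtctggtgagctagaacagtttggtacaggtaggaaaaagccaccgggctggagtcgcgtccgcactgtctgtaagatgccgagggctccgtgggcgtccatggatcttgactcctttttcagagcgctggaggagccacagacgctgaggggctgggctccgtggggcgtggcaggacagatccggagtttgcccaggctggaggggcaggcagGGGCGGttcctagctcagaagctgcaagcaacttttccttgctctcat
*Itga3*, chr11:95076665-95076964, minus strand: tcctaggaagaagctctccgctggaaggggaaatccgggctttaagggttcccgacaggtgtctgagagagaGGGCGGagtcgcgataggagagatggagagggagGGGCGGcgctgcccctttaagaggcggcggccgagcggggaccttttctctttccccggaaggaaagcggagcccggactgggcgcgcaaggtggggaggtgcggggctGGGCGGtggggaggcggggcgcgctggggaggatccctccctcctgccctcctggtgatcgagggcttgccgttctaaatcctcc
*Itgb1*, chr8:128685404-128685703, plus strand: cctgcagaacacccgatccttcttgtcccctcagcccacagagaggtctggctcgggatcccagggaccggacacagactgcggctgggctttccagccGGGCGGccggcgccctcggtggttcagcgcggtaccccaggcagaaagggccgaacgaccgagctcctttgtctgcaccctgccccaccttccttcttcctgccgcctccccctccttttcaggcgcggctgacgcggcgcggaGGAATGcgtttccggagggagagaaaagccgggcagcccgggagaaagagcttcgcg
*Itgb6*, chr2:60722554-60722853, minus strand: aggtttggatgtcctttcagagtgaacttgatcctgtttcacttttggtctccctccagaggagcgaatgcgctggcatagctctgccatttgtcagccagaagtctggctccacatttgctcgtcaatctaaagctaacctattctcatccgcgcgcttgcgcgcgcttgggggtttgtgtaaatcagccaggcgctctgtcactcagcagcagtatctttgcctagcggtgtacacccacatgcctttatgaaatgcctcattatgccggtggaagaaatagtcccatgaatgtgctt
The *Itga2* window held 1 SP and KLF match, the *Itga3* window 3 and the *Itgb1* window 1, the last beside 1 TEAD match. The *Itgb6* window held no match to any of the 4 motifs. Of the 32851 promoter windows in the table, 35.7% held the SP and KLF letters, 14.7% the TEAD letters, 7.81% the AP-1 letters and 13.6% the TATA letters. G and C made up 59.3%, 66.7% and 67.3% of the *Itga2*, *Itga3* and *Itgb1* windows and 50.3% of the *Itgb6* window. Of the windows of the other members, that of *Itgb5* held 3 SP and KLF matches, *Itga5* 2, *Itgav* 1 and *Itgb8* 0. G and C made up 65.7%, 58.7%, 67.3% and 60.7% of these. SP and KLF matches and GC share thus did not set the genes of the basal-like pattern apart from the other members. A second start of *Itga3*, at chr11:95069149-95069448, held 1 AP-1 match and 1 SP and KLF match.

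**Figure D1:**
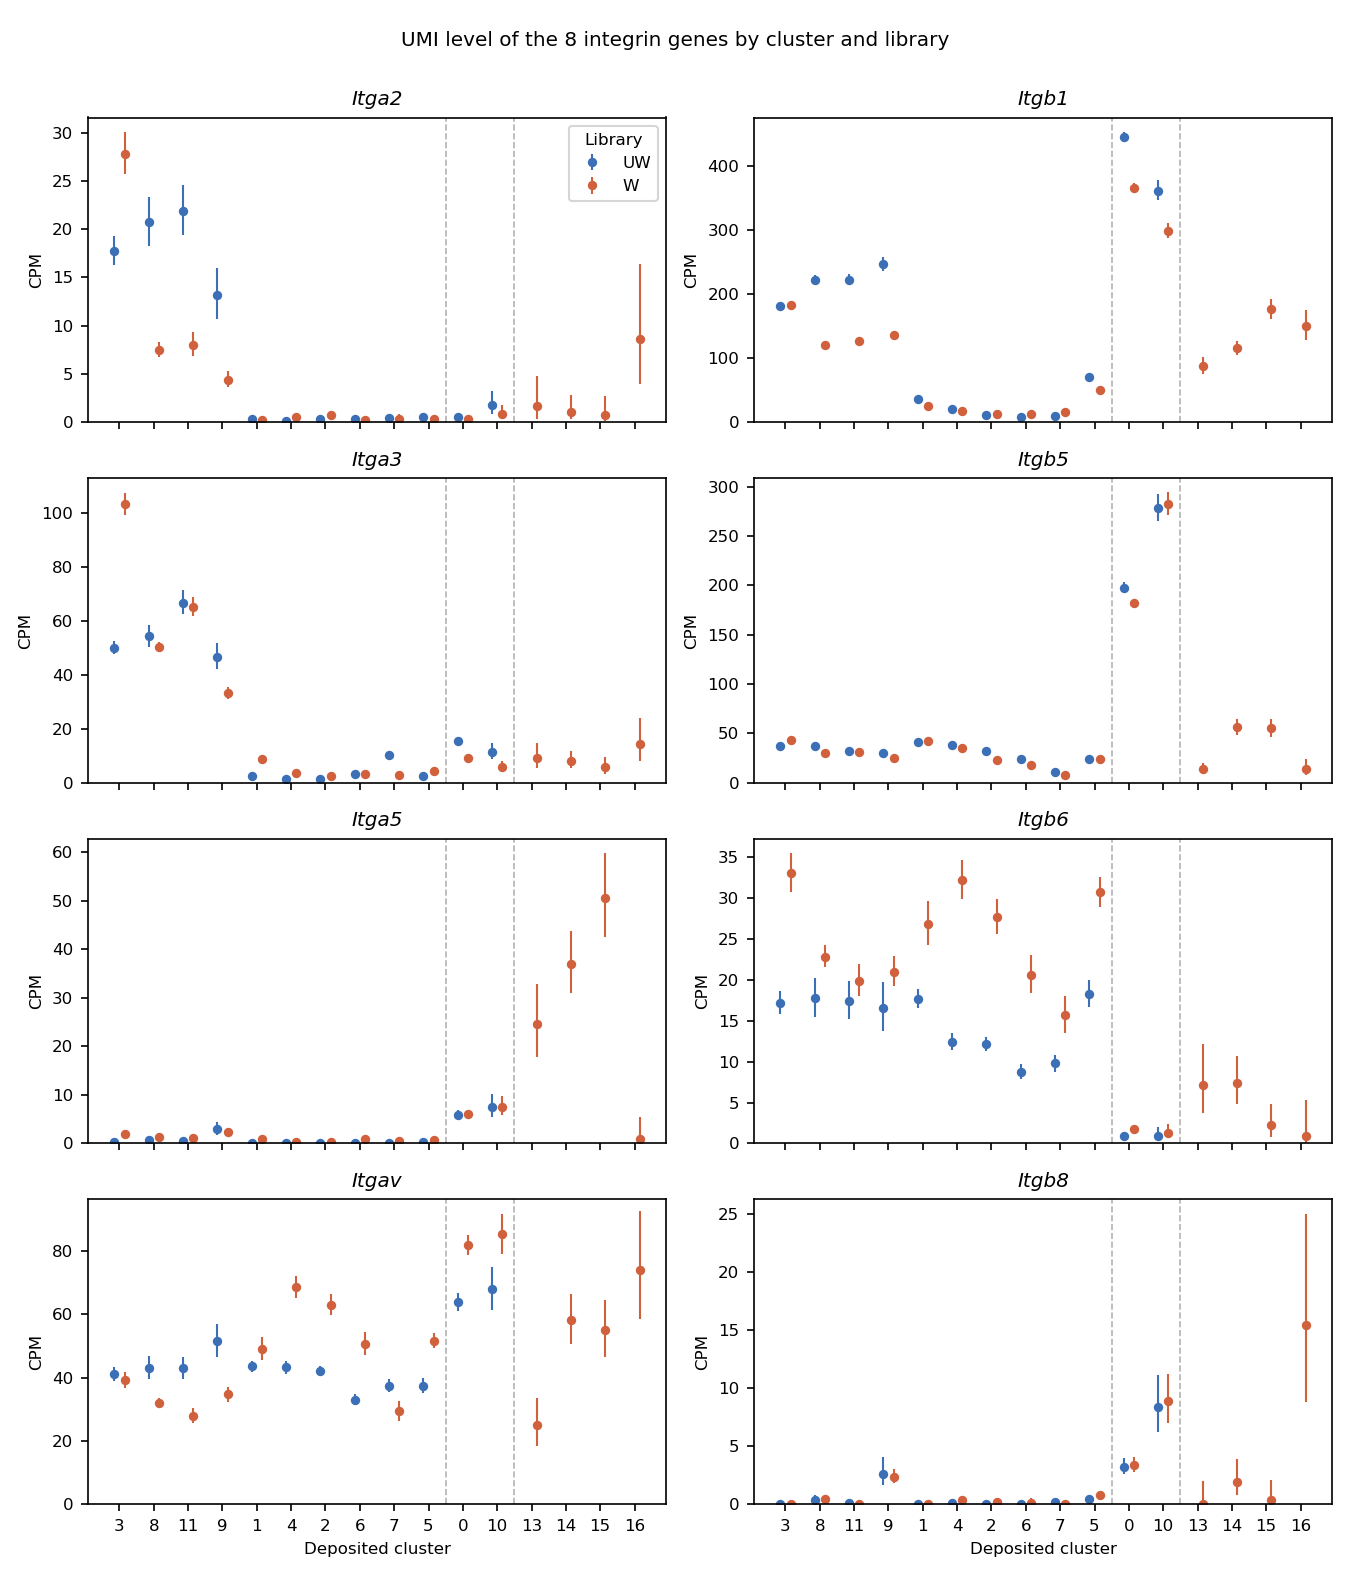
Level of each gene in CPM (vertical axis) by deposited cluster (horizontal axis), in UW (blue) and W (orange), with bars for the exact 95% counting interval. Dashed lines part the 10 epithelial clusters from stromal clusters 0 and 10 and from the immune clusters of W. *Itga2*, *Itga3* and *Itgb1* stand highest of the epithelium in clusters 3, 8, 11 and 9, *Itgb6* is spread over the epithelium and near 0 in the stroma, and *Itga5* is highest in clusters 14 and 15.

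Over the 10 epithelial clusters the 8 genes made 80 pairs of gene and cluster, of which 49 passed the filter. *Itga5* and *Itgb8* passed in none, *Itga2* in 4, *Itga3* in 5, and *Itgav*, *Itgb1*, *Itgb5* and *Itgb6* in all 10. A pair was called higher in W 4 times and lower 4 times. Among all 70266 pairs of gene and epithelial cluster that passed, 8.32% were called higher and 9.2% lower, and the 4 of 49 calls each way are near those shares. The count depended on the call rule: with no filter on low levels 20 of 76 pairs were higher and 4 lower (17.6% and 11.5% of all pairs), and at a ratio of 1.5 14 of 49 were higher and 8 lower (18.0% and 23.1%). The interval lay above 0 in 19, below 0 in 21 and spanned 0 in 9 of the 49, and it lay above 0 in 36.9% and below 0 in 45.7% of all pairs. Of the 49 pairs, 9 reached 10 CPM in 1 library alone and so passed through the library where they are high: *Itga2* in clusters 8, 9 and 11 and *Itga3* and *Itgb5* in cluster 7 through UW, and *Itgb1* and *Itgb6* in clusters 6 and 7 through W. By cluster, the median log2 ratio of the members that passed ran from -0.53 (cluster 9, 6 members) to 0.70 (cluster 6, 4 members). It was 0.42 in cluster 3 and -0.35, -0.37 and -0.35 in clusters 7, 8 and 11, while the medians of all genes lay between -0.25 and 0.04. The medians of clusters 6, 7, 8, 9 and 11 include the pairs just named that passed through 1 library alone. They are in part set by the filter and are given as a description only.

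The collagen receptor chain *Itga2* was detected mainly in the clusters with basal layer markers. In UW it stood at 17.8 CPM in basal-like cluster 3 (95% interval 16.3 to 19.3), 20.7 in mitotic cluster 8, 21.9 in S phase cluster 11 and 13.1 in limbal-like cluster 9, against 0.139 to 0.52 CPM in the other 6 epithelial clusters. The 4 clusters held 93.3% of the epithelial *Itga2* UMIs in UW and 96.3% in W, while holding 19.9% and 48.6% of all epithelial UMIs. In UW the interval of cluster 8 overlapped those of clusters 3 and 11, and cluster 9 lay below the other 3.

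In W the 4 clusters parted. *Itga2* reached 27.8 CPM in cluster 3 (25.7 to 30.1), a log2 ratio of 0.65 (0.48 to 0.81). It was 7.45 CPM in cluster 8, 8.04 in cluster 11 and 4.42 in cluster 9. The log2 ratios there were -1.47, -1.45 and -1.57, and all 3 intervals lay below -1. These 3 pairs, which passed the filter through UW alone, were called lower, where 7.99% of all genes were lower in cluster 8, 7.97% in cluster 11 and 7.01% in cluster 9. With each cell thinned to 5000 UMIs, the share of cells with an *Itga2* UMI was 8.43% in UW and 10.1% in W in cluster 3, a difference within the counting intervals (7.16 to 9.85% and 8.13 to 12.3%). In cluster 8 the thinned share was 10.8% in UW and 3.05% in W, and in cluster 11 it was 13.3% and 4.5%. Before thinning, the cluster 3 shares were 21.6% and 32%, and the cluster 8 shares 32.9% and 19.4%, at median depths of 18682 and 23906 and of 24704 and 35499 UMIs.

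The laminin receptor chain *Itga3* followed the same clusters. In UW it was 50.1 CPM in cluster 3 (47.7 to 52.6), 54.2 in cluster 8, 66.7 in cluster 11 and 46.7 in cluster 9, and between 1.35 and 10.2 CPM in the rest of the epithelium. In W it was 103 CPM in cluster 3 (99 to 107), with 50.2, 65.2 and 33.1 CPM in clusters 8, 11 and 9. Cluster 3 of W thus stood above every other cluster in either library.

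The log2 ratio of *Itga3* in cluster 3 was 1.04 (0.95 to 1.14), which is called higher, as were 10.4% of the 7719 genes that passed there, but the ratio fell just short of 2 under TMM (0.99) and median of ratios scaling (0.97) and as a mean over cells (0.96). The thinned share of cells with a UMI was 21.3% in UW (19.3 to 23.3%) and 34.9% in W (31.7 to 38.2%). In cluster 8 the ratio was -0.11 (-0.23 to 0.01) and in cluster 11 -0.03 (-0.16 to 0.09), so no difference was detectable at this depth. In cluster 9 it was -0.50 (-0.68 to -0.31). Cluster 7, of the superficial side, was the other pair past the threshold: its levels were 10.2 CPM (UW, 370 counts) and 2.93 CPM (W, 35 counts), a log2 ratio of -1.80 (-2.34 to -1.30) where 7.29% of genes were called lower. It passed the filter through its UW level alone. The other 5 epithelial clusters stayed under 10 CPM and were not called. Their ratios were 1.77 in cluster 1 (2.57 CPM in UW, 8.77 in W), 1.19 in cluster 4, 0.98 in cluster 2 and 0.78 in cluster 5, all with intervals above 0, and -0.08 in cluster 6 (-0.59 to 0.41).

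*Itgb1*, the common beta chain of the collagen, laminin and fibronectin receptors, also had its highest epithelial levels in these 4 clusters. UW cells had 182 CPM in cluster 3, 222 in cluster 8, 222 in cluster 11 and 246 in cluster 9. The conjunctival-like cluster 5 came next at 70.5 CPM, and the other 5 lay between 7.42 and 36 CPM. In W, cluster 3 had 184 CPM and clusters 8, 11 and 9 had 121, 127 and 136 CPM. The level of cluster 3 was thus nearly the same in both libraries, with a log2 ratio of 0.01 (-0.04 to 0.07) that was below 0 under TMM (-0.04) and median of ratios scaling (-0.06), while those of clusters 8, 11 and 9 were -0.88, -0.81 and -0.86. The ratio of cluster 3 fell below its interval with each cell thinned to 5000 UMIs (-0.10) and as a mean over cells (-0.19). None of these passed the 2-fold threshold. In clusters 6 and 7, where *Itgb1* was low, the ratios were above 0, at 0.77 (from 7.42 to 12.7 CPM) and 0.74 (from 9.34 to 15.6 CPM). Both pairs passed the filter through W alone. Their ratios were 0.61 and 0.36 under TMM, 0.62 and 0.33 under median of ratios scaling, and 0.93 and 1.04 after thinning. Clusters 1, 4 and 5 went the other way, at -0.54, -0.30 and -0.48, and cluster 2 was at 0.16 (-0.04 to 0.36).

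*Itga2*, *Itga3* and *Itgb1* therefore had in common that cluster 3 of W stood above clusters 8, 9 and 11 of W, whereas in UW *Itgb1* stood higher in clusters 8, 9 and 11 than in cluster 3 and *Itga2* and *Itga3* higher in cluster 11. Clusters 8, 9 and 11 were deeper in W than in UW, with medians of 35499, 24009 and 35514 UMIs against 24704, 13944 and 21461. After thinning to 5000 UMIs the share of cells with an *Itgb1* UMI was still 63.7% in UW and 40.8% in W in cluster 8, and 71.9% and 48.6% in cluster 9, and in cluster 3 it was 57% and 52.7%. How far the clusters of the 2 libraries hold the same kind of cell was not tested, since the clusters were made from all genes of these cells.

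**Figure D2:**
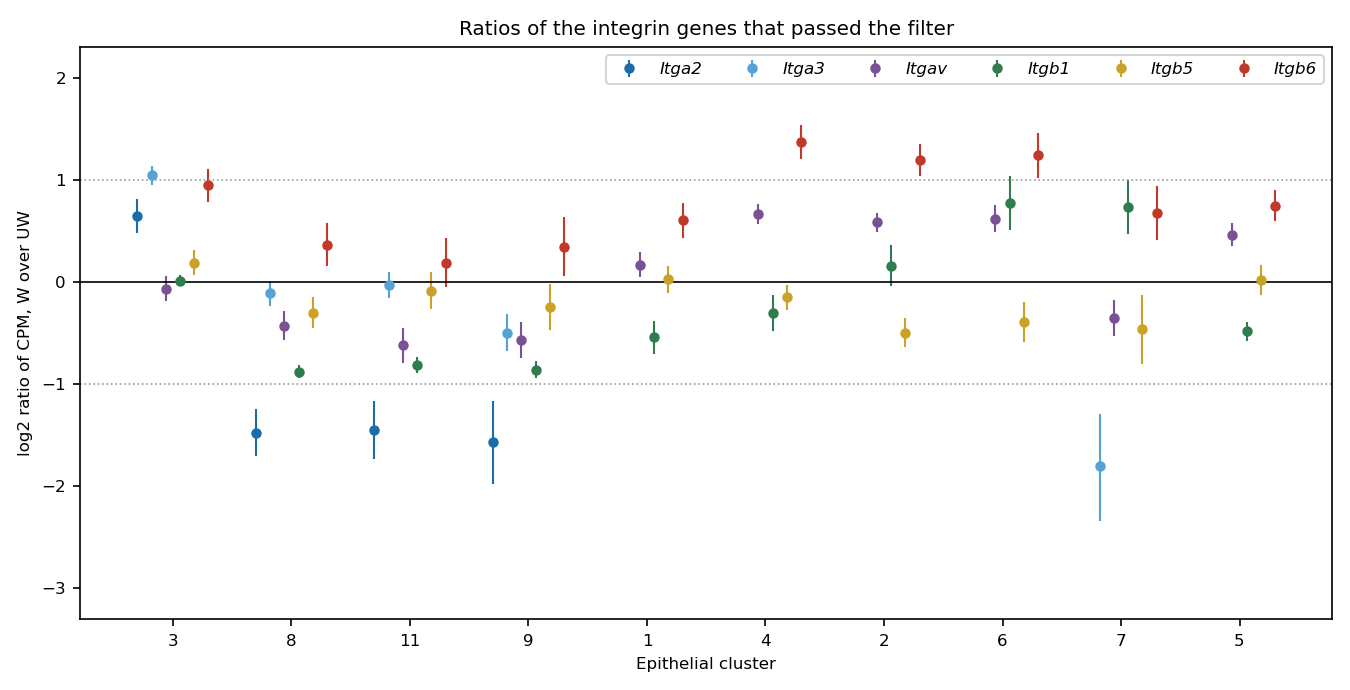
Log2 ratio of CPM, W over UW (vertical axis), in each epithelial cluster (horizontal axis) for the 6 genes that passed the filter there, with bars for the exact 95% counting interval and dotted lines at a ratio of 2 either way. *Itgb6* lies above 0 in all 10 clusters, and *Itga2* lies at 0.65 in cluster 3 and between -1.57 and -1.45 in clusters 8, 11 and 9.

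*Itga5*, the fibronectin receptor chain, was barely detected in the epithelium. It had 72 UMIs in 13501 UW cells and 259 in 8507 W cells, or 0.216 CPM (0.169 to 0.272) and 1.08 CPM (0.956 to 1.22). Cluster 9 was highest with 2.89 CPM in UW and 2.29 in W, and cluster 3 had 0.366 and 1.86 CPM. The stromal clusters 0 and 10 had 5.91 and 7.53 CPM in UW and 5.98 and 7.57 in W. By far the highest levels were in immune clusters of W, with 24.5 CPM in cluster 13, 36.9 in cluster 14 (led by MHC class II genes) and 50.6 in cluster 15 (led by *Pf4* and *Lyz2*). UMIs of the 5 neutrophil markers summed to between 2.03 and 155 CPM in the epithelial clusters of UW and to between 352 and 1050 in W. They went from 8.63 to 556 CPM in cluster 3 and from 17.1 to 352 CPM in cluster 9. Single neutrophil genes stayed low: between the libraries, cluster 3 went from 0.0915 to 0.664 CPM for *Csf3r* and from 0.0305 to 0.532 CPM for *Cxcr2*. Cluster 9 of W had 0.442 and 0.241 CPM of these genes, and cluster 13, led by neutrophil markers, had 409 and 119. Nearly all of the sum in cluster 3 of W thus came from other genes, and their source was not tested. The 5 monocyte and macrophage markers summed to between 4 and 466 CPM in UW and between 13.5 and 245 in W, and went from 4 to 18.3 CPM in cluster 3 and from 6.04 to 14.9 CPM in cluster 9. They include *Itgam*, which stood at 83.1 CPM over all epithelial cells of UW, and the 466 CPM were in cluster 7. In cluster 3 of W *Fcgr1*, *Csf1r* and *Adgre1* were at 0.266, 0.31 and 0.133 CPM, beside 648, 218 and 293 in cluster 15. The part of free or attached immune RNA in the *Itga5* counts was not tested. *Itga5* did not pass the filter, so no call was made.

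*Itgav* was the most even of the alpha chains. In UW the epithelial clusters lay between 33 and 51.5 CPM and in W between 27.9 and 68.5, and all 10 passed the filter. Clusters 4, 2 and 6, of the suprabasal and superficial side, stood at 43.2, 42 and 33 CPM in UW and at 68.5, 63.1 and 50.8 in W. Clusters 8, 9 and 11 stood at 43.1, 51.5 and 42.9 CPM in UW and at 32, 34.7 and 27.9 in W. In clusters 4, 2 and 6 the gene was thus higher in W, with log2 ratios of 0.67, 0.59 and 0.62, and lower in the dividing and limbal-like clusters, with -0.43, -0.57 and -0.62. The other clusters of the suprabasal and superficial side did not share this: cluster 1 was at 0.17 (0.05 to 0.29), or 0.04 under TMM scaling, and cluster 7 at -0.35. Conjunctival-like cluster 5 was higher in W, at 37.5 and 51.6 CPM, a log2 ratio of 0.46 (0.35 to 0.57). In cluster 3 the levels were 41 and 39.2 CPM, and the ratio of -0.07 (-0.19 to 0.06) was above 0 after thinning (0.33) and as a mean over cells (0.08). No pair of *Itgav* reached a ratio of 2. The stroma had more in both libraries, with 63.8 CPM in UW and 81.9 in W in cluster 0.

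The beta chains that pair with alpha v took 3 patterns. *Itgb5*, a vitronectin receptor chain, was mainly stromal: clusters 0 and 10 had 198 and 279 CPM in UW and 182 and 283 in W. The epithelium had 10.6 to 41.4 CPM in UW and 7.7 to 43 in W. Its ratios lay between -0.50 (cluster 2) and 0.19 (cluster 3), and none was called.

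*Itgb6*, whose product pairs with alpha v alone and is known to activate latent TGF-beta, was epithelial. Stromal cluster 0 had 0.914 CPM in UW and 1.79 in W, where the epithelial keratin *Krt12* was also detected, at 1554 and 736 CPM, and the part of free epithelial RNA in this level was not tested. In UW the epithelial clusters lay between 8.73 CPM (cluster 6) and 18.3 CPM (cluster 5). Every one of them was higher in W, where they lay between 15.7 CPM (cluster 7) and 33 CPM (cluster 3), and the ratio was also above 0 in all 10 clusters under each of the 7 alternatives computed per cluster. Clusters 1, 3, 5, 8, 9 and 11 were alike in UW, between 16.5 and 18.3 CPM. In W they spread out, and clusters 3, 4 and 5 stood highest, at 33, 32.2 and 30.7 CPM, with overlapping intervals.

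The largest ratios of *Itgb6* were in cluster 4 (12.4 CPM in UW and 32.2 in W, log2 ratio 1.37, interval 1.21 to 1.53), cluster 6 (1.24, 1.02 to 1.46) and cluster 2 (1.19, 1.04 to 1.35). These 3 were called higher, that in cluster 6 having passed the filter through W alone, against a background of 7.44%, 9.93% and 6.44% of genes in those clusters. Cluster 3 came just under the threshold at 0.94 (0.78 to 1.11). The smallest ratios were in the dividing and limbal-like clusters, at 0.36 in cluster 8, 0.34 in cluster 9 and 0.19 in cluster 11, and only the last interval reached 0 (-0.05 to 0.43). In cluster 3 the thinned share of cells with an *Itgb6* UMI was 8.67% in UW (7.37 to 10.1%) and 15.5% in W (13.1 to 18.1%), whereas in cluster 9 it was 9.11% and 9.68%.

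*Itgb8*, the other chain linked to TGF-beta activation, was near 0 in the epithelium. Basal-like cluster 3 had 0 UMIs in UW, where the exact upper limit was 0.113 CPM and the limit of 3 counts 0.0915 CPM, and 1 in W. Limbal-like cluster 9 was the one epithelial cluster above 1 CPM, with 2.63 CPM in UW (20 counts) and 2.37 in W (59 counts). Stromal cluster 10 had 8.41 and 8.9 CPM, and the T-like cluster 16 of W had 15.4 CPM from 16 counts.

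When all epithelial cells were summed, the ratios mixed the level of each cluster with the share of each cluster. *Itga3* was called higher, at 13.3 CPM in UW and 31 in W (log2 ratio 1.22, 1.17 to 1.27), 1 of the 5 members that passed, and no member was called lower; among the 7456 genes that passed, 12.5% were called higher and 7.83% lower. *Itgb1* stood at 59.3 and 80.2 CPM (0.44) and *Itgb6* at 13.9 and 25.6 CPM (0.88). *Itgav* was at 40.6 and 44.1 CPM, *Itgb5* at 31.3 and 28.8 CPM, and *Itga2*, below the filter, at 3.96 and 5.48 CPM. The clusters 3, 8, 9 and 11 held 19.9% of the epithelial UMIs in UW and 48.6% in W, of which mitotic cluster 8 alone went from 3.84% to 20.4%.

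With the clusters of W weighted by their UMI shares in UW, the members separated. *Itga3* came to 18.9 CPM (log2 ratio 0.50) and was no longer called. Its call was also lost with each cell thinned to 5000 UMIs (0.83), as a mean over cells (0.77) and under median of ratios scaling (0.99). *Itgb1* came to 46.9 CPM, and its ratio changed sign to -0.34. *Itga2* came to 3.77 CPM, close to the UW level of 3.96. *Itgb6* stayed at 26 CPM, with a ratio of 0.90 against 0.88 as measured. Thus, of the genes that passed and were higher in W over the whole epithelium, *Itgb6* had much the same ratio with or without the shift in cluster shares, *Itga3* a smaller one without it and *Itgav* a larger one (0.29 against 0.12), and *Itgb1* was not higher without it. The measured ratio of *Itgav* turned below 0 under TMM (-0.10) and median of ratios scaling (-0.11). The summed ratio of *Itgb1* also depended on the weight of deep cells, at 0.04 with each cell thinned to 5000 UMIs and -0.0041 as a mean over cells.

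**Figure D3:**
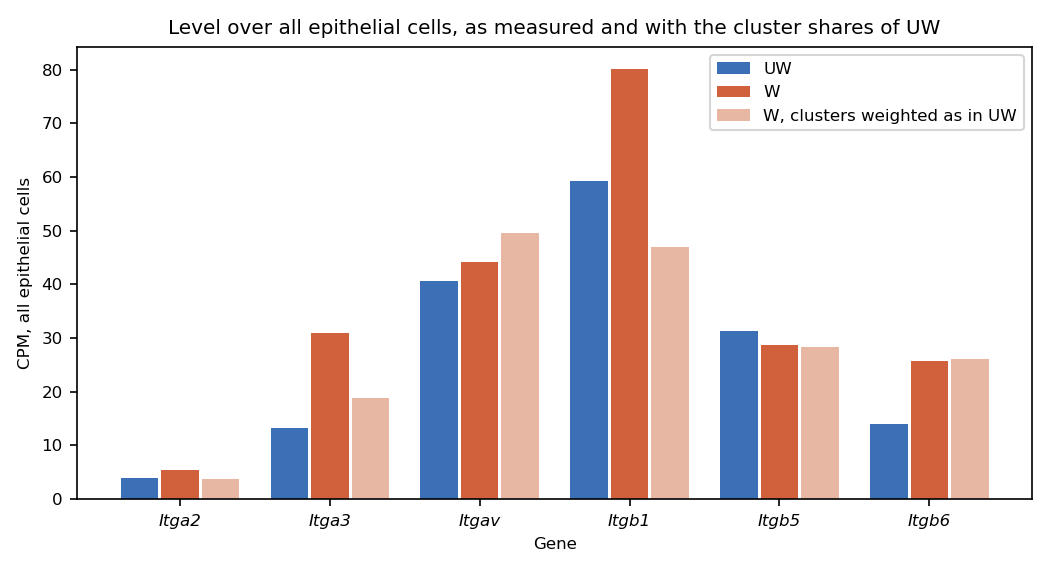
Bars give CPM over all epithelial cells (vertical axis, from 0) for 6 genes in UW, in W and in W with its clusters weighted by their UMI shares in UW. For *Itgb1* the order of UW (59.3) and W (80.2) turns when the clusters are weighted (46.9), and for *Itgb6* the weighted bar (26) equals the measured one (25.6) to within 1 CPM.

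The chains of a receptor have to be made by the same cell, so UMIs of both were counted cell by cell after thinning to 5000 UMIs. In cluster 3, 15.4% of the 1708 UW cells had UMIs of both *Itga3* and *Itgb1* (13.7 to 17.2%), and 22.3% of the 865 W cells did (19.6 to 25.2%). The products of the separate shares were 12.1% and 18.4%. For *Itga2* with *Itgb1* the shares were 6.44% and 6.94%, with products of 4.81% and 5.3%. Of the cells with an *Itga2* UMI, 76.4% in UW and 69% in W also had an *Itgb1* UMI, compared with 57% and 52.7% of all cells in the cluster. In limbal-like cluster 9 the share with both *Itga3* and *Itgb1* was 15.6% in UW and 8% in W, beside products of 16.4% and 7.68%.

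*Itgav* and *Itgb6* were found together in 1.7% of the cluster 3 cells in UW (1.14 to 2.43%) and 4.39% in W (3.13 to 5.98%), against products of 1.46% and 2.97%. In cluster 4 the shares were 1.54% and 5.26%, against 1.31% and 4.22%. Limbal-like cluster 9 went the other way, with 3.37% in UW (1.97 to 5.34%) and 0.842% in W (0.364 to 1.65%), against 2.06% and 1.45%. *Itgav* with *Itgb5* was at 2.75% and 3.93% in cluster 3, where the products were 2.77% and 3.97%. Of the cluster 3 cells 57% in UW had an *Itgb1* UMI, and 60.1% of those with an *Itgav* UMI did. *Itgav* with *Itgb8* was found in 0 of 1708 and 0 of 865 cells, and *Itga5* with *Itgb1* in 2 and 5 cells. A share of cells with both UMIs is limited by the few UMIs of each gene and is not the share of cells with the receptor.

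**Figure D4:**
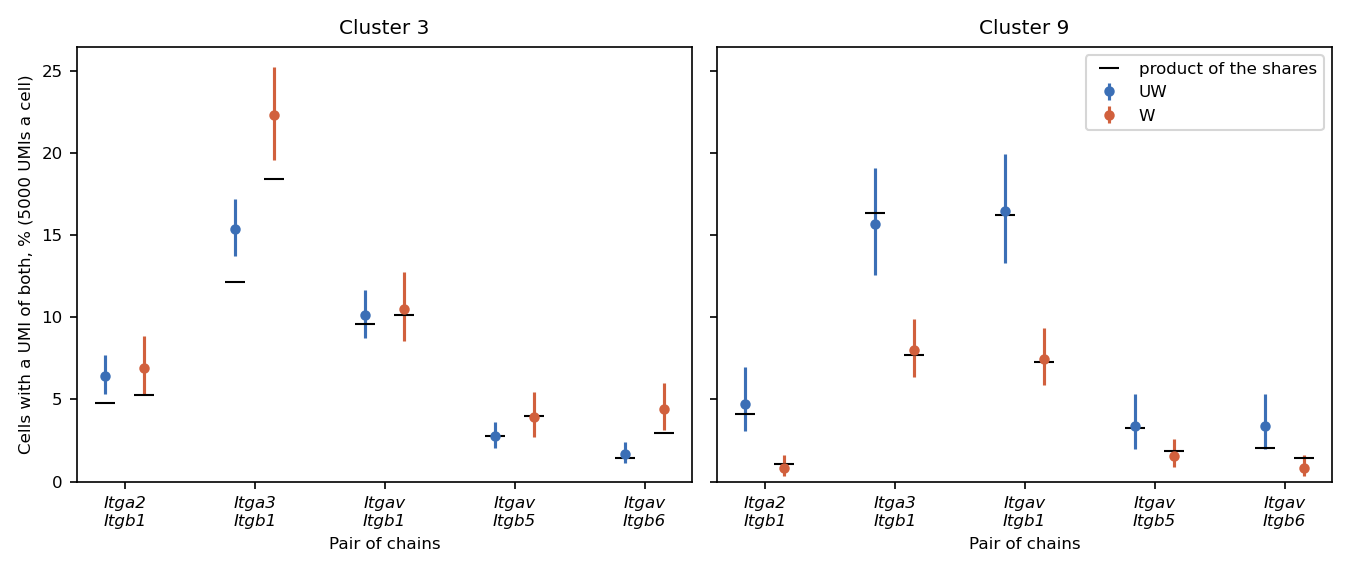
Share of cells with a UMI of both chains (vertical axis, percent, each cell thinned to 5000 UMIs) for 5 pairs of chains in clusters 3 and 9, with exact 95% intervals, and black dashes for the product of the separate shares. In cluster 3 *Itga3* with *Itgb1* is at 15.4% in UW and 22.3% in W, and in cluster 9 at 15.6% and 8%.

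Among other integrin subunits, 3 of 17 passed the filter in cluster 3. *Itgb4*, the hemidesmosome chain that binds laminin with alpha 6, was called higher (134 CPM in UW, 351 in W, log2 ratio 1.39), and *Itga2b*, the platelet integrin chain, lower (14 and 5.67 CPM), beside 10.4% and 9.6% of all genes. *Itga6* was at 536 and 673 CPM, short of 2-fold. *Col17a1*, the hemidesmosome collagen, was at 1108 and 1636 CPM in cluster 3 and at 792 and 543 in cluster 9. Over all epithelial cells *Itgb7* (26.3 and 5.92 CPM) and *Itgam* (83.1 and 28.6 CPM), chains best known from leukocytes, were called lower and *Itgb4* (31.6 and 110 CPM) higher, of 4 that passed, beside 7.83% and 12.5% of all genes.

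The matrix proteins that these receptors bind were called higher for 5 and lower for 3 of the 13 list genes that passed in cluster 3, beside 10.4% and 9.6% of all genes. *Lamb3* (26.7 CPM in UW, 205 in W), a chain of laminin-332, the main ligand of the alpha 3 chain, and osteopontin (*Spp1*, 0.244 and 24.4 CPM, from 8 and 550 counts) were higher. Fibronectin (*Fn1*, 95.3 and 18 CPM), nidogen (*Nid1*, 22 and 4.43 CPM) and the laminin chain *Lamb1* (60.1 and 19 CPM) were lower. So within cluster 3 the *Itga3* chain and this chain of its ligand were both higher in W, and the fibronectin gene was lower. *Lamb3* differed less in the other clusters with basal layer markers, at 36 and 53.2 CPM in cluster 8 and 84.7 and 93.3 CPM in cluster 9. Over all epithelial cells 5 of 10 were higher and 2 lower, beside 12.5% and 7.83% of all genes. There *Thbs1*, thrombospondin 1, was at 8.76 and 27.5 CPM.

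Of 25 activators and adaptors that tie integrins to actin, 21 passed in cluster 3, of which 5 were called higher and 2 lower, beside 10.4% and 9.6% of all genes. *Actn1*, the actin crosslinker alpha-actinin 1, was at 0.915 CPM in UW (30 counts) and 63 in W (1422 counts). *Zyx* (zyxin, of focal adhesions; 39.5 and 94.5 CPM) and *Fermt1* (kindlin 1, an integrin activator of epithelia; 71.2 and 162 CPM) were also higher. *Tln2* (talin 2; 21.2 and 7.31 CPM) and *Iqgap1* (a scaffold of the cell cortex; 535 and 267 CPM) were lower. Over all epithelial cells 3 of 20 were higher, among them *Flna*, filamin A, at 14.2 and 42.8 CPM, and 0 lower, beside 12.5% and 7.83% of all genes.

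Of the 15 TGF-beta genes, 9 passed in cluster 3, with 3 called higher and 1 lower, beside 10.4% and 9.6% of all genes. *Ltbp1*, which anchors latent TGF-beta in the matrix, was at 1.65 and 17.5 CPM. *Smad7*, a feedback inhibitor of the pathway, was at 20.1 and 75.4 CPM and *Smad3*, one of its signal carriers, at 20.7 and 46.2 CPM. *Tgfbr1*, the type I receptor, was lower at 80.6 and 32.6 CPM. Over all epithelial cells 3 of 8 were called higher and 1 lower, beside 12.5% and 7.83% of all genes. They were *Tgfb1* (8.14 and 17.8 CPM), *Tgfbr2* (7.15 and 18.6 CPM) and *Smad7* (21.5 and 45 CPM), and the lower one was *Tgfbr1* (40.3 and 20 CPM).

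Genes known from wound margins of stratified epithelium were then compared, within cluster 3, between cells with and without a UMI of a member, again at 5000 UMIs a cell. Of the 17 list genes that passed in this cluster, 13 were called higher in W and 0 lower, beside 10.4% and 9.6% of all genes. In W, 87 cells had an *Itga2* UMI and 778 had none. Of the 17 genes with 20 counts, 8 were higher in the *Itga2* cells beyond counting error and 3 were lower, where 5.09% and 4.37% of all 9118 genes with 20 counts were so. The collagenase *Mmp13* was at 62.1 CPM in cells with *Itga2* and 19 in cells without, the protease inhibitor *Slpi* at 85.1 and 27.5 CPM, *Plaur*, the urokinase receptor, at 209 and 108 CPM, and *Sprr1b* at 143 and 75.3 CPM. Of the 4 keratins on the list, 3 were lower in the cells with *Itga2*: *Krt6b* was at 193 and 416 CPM, *Krt16* at 2366 and 3514 CPM and *Krt17* at 163 and 340 CPM. *Krt6a*, at 3878 and 4072 CPM, did not differ beyond counting error.

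In UW, 144 cells of cluster 3 had an *Itga2* UMI, with 3 of 13 genes higher in them and 5 lower, beside 7.3% and 4.72% of all genes. Of the same 13 genes, 5 were higher and 3 lower in the W cells with *Itga2*, and the difference between the libraries was not tested. *Cd44* was lower in the UW cells with *Itga2* (306 and 433 CPM) and higher in those of W (614 and 492 CPM). *Krt16* was likewise lower in them (561 and 1062 CPM), but *Krt17* was at 107 and 82.4 CPM. *Procr* was higher in the cells with *Itga2* in both libraries, with 76.4 and 29.3 CPM in UW and 198 and 138 in W.

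The *Itgb6* split of the W cells of cluster 3 (134 with, 731 without) gave 9 genes higher and 1, *Stfa1* (7.46 and 19.4 CPM), lower, beside 4.41% and 3.67% of all genes. *Plau*, urokinase, was at 58.2 and 33.7 CPM, and *Mmp10* at 32.8 and 14.8 CPM. *Krt16* (4015 and 3286 CPM) and *Krt17* (369 and 314 CPM) were higher in cells with *Itgb6*, opposite to the *Itga2* split. The same split of the UW cells (148 with, 1560 without) gave 2 of 13 genes higher, *Plaur* (62.2 and 32.7 CPM) and *Hbegf* (300.0 and 234 CPM), and 1 lower, *Krt17* (59.5 and 86.8 CPM), beside 2.5% and 1.97% of all genes. *Itga5* UMIs were found in only 10 W cells and 4 UW cells, too few for such a comparison. These intervals count UMIs and not cells or mice, and cells of 1 library are not replicates.

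**Figure D5:**
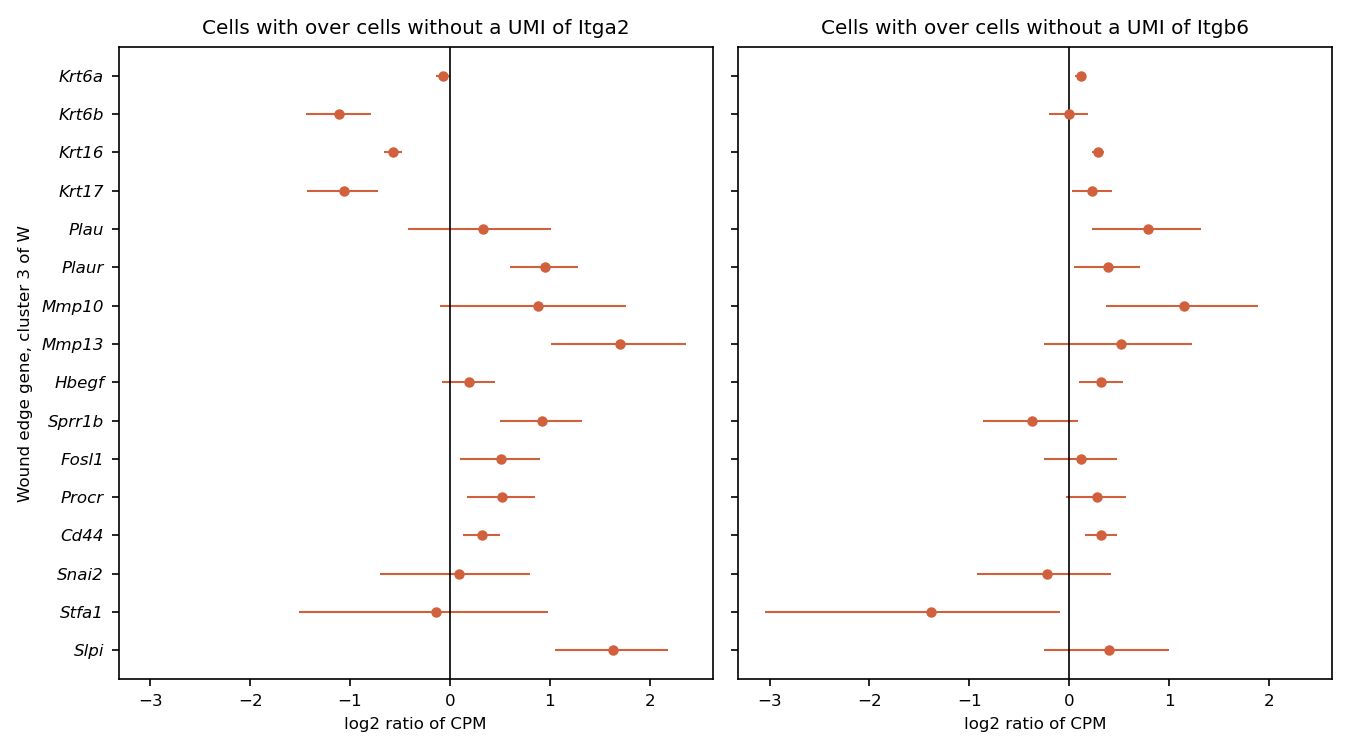
Log2 ratio of CPM between cells with and cells without a UMI of *Itga2* (left) or *Itgb6* (right) for wound edge genes in cluster 3 of W, with exact 95% counting intervals. *Plaur* lies above 0 on both sides, at 0.95 and 0.38, and *Krt16* and *Krt17* lie below 0 for *Itga2* and above 0 for *Itgb6*.

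The genes whose pattern over clusters was most like each member were found from Pearson's r of log2(CPM + 1) over 28 sums of cluster and library with at least 50 cells, among 11716 genes. The sums share libraries and the depth of their clusters, and r is given as a description. *Itga2* and *Itga3* were each other's nearest gene (r = 0.91), followed by *Wnt3a* (0.90) and *Jag2* (0.89) for *Itga2* and by *Spon2* and *Mtcl1* (0.90 each) for *Itga3*. *Itgb1* was nearest to *Plekha3* and *Nfic* (0.97 each) and *Rev3l* (0.96). *Itgb6* was nearest to *Kdf1* (0.97), *Rhbdl2* (0.96) and *Tmem102* (0.95), and *Itga5* to *Sh2b2* (0.97), *Tmem86a* (0.96) and *Aph1c* (0.95). For *Itgb5* they were *Txndc15* (0.94), *Arsa* (0.93) and *Tmco3* (0.93), and *Itgb8* was near *Cables1* (0.95) and *Cers4* (0.93). *Itgav* had no gene so close, with *Manba* at 0.80 and *Tcf25* at 0.77. Among the members the lowest r was between *Itgb6* and *Itgb8* (-0.74), and *Itgav* had r of 0.68 with *Itgb8*, 0.64 with *Itgb5* and -0.52 with *Itgb6*.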

How the data were processed

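Single cells of mouse cornea were sequenced on a 10x Genomics droplet platform in 2 libraries, UW and W, each from 4 pooled mice. The authors deposited raw UMI counts per gene and cell, not normalized, and a table of cells that gives the library in the barcode and a cluster number. The labels name Cell Ranger 3.1.0 and Seurat and the mm9 assembly with the v3 kit; the methods of the study name an mm10 reference and the V2 kit, and the files hold gene symbols only. By the methods, kept cells had a gene number of 500 to 8000 and no more than 10% mitochondrial UMIs, and doublets were removed with DoubletFinder. In the deposited cells the gene number ran from 501 to 7570 and the highest mitochondrial share was 9.99%. The table still marks 305 UW and 164 W cells as doublets of a first DoubletFinder run, and these were kept except in an alternative.

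Counts were summed per deposited cluster and library in Python 3.11.15 (numpy 2.4.6, scipy 1.17.1, pandas 2.3.3), over depths of 367166822 UMIs in UW and 289586482 in W, and divided by the UMIs of the same cells. Levels have exact Poisson intervals, ratios exact conditional binomial intervals and shares of cells exact Clopper-Pearson intervals, all at 95%. UMIs count molecules, and the intervals cover counting error only. Calls used a ratio of 2, 20 counts over both libraries and 10 CPM in a library. Shares were also computed with each cell thinned to 5000 UMIs (2000 in immune clusters), which left out 367 UW and 176 W epithelial cells. The computation of ratios and calls was run on Poisson counts simulated from cluster 3 with known changes. These counts follow the model of the intervals and hold no spread between cells or mice, so the run could check the computation only. Clusters were described by marker lists, and the members and all lists were chosen with earlier results of these data known. Genes were named by a rule: all 8 members, at most 3 genes each way per list past a ratio of 2 in cluster 3 and in all epithelial cells, the 3 genes most like each member, wound edge genes and markers. Some genes that the rule names are not reported here. Of 97 list genes, *Itgad* and *Vtn* were not found in the table. Alternatives used TMM (edgeR 4.0.16) and median of ratios (DESeq2 1.42.0) scaling in R 4.3.3, on the summed counts.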

Additional observations from a re-analysis of the deposited data

Results flagged for a closer look

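In 4 genes the W over UW ratio went opposite ways in different epithelial clusters, by at least 1.5-fold each way and beyond counting error. The difference between clusters was not tested, since each condition has 1 library. For *Itga3* the log2 ratio was 1.04 in basal-like cluster 3 and -1.80 in cluster 7, a difference of 2.84. The cluster 7 value passed the filter through UW alone, and below the filter clusters 1, 2, 4 and 5 were at 1.77, 0.98, 1.19 and 0.78. For *Itga2* it was 0.65 in cluster 3 and -1.57 in limbal-like cluster 9, a difference of 2.22, where the cluster 9 value also passed through UW alone. The cluster 3 side fell short of 1.5-fold when thinned to 5000 UMIs (0.42), as a mean over cells (0.43), without first-run doublets (0.54) and under median of ratios scaling (0.58). *Itgb1* differed by 1.65 between superficial-like cluster 6 (0.77, which passed through W alone) and mitotic cluster 8 (-0.88). *Itgav* differed by 1.29 between cluster 4 (0.67) and S phase cluster 11 (-0.62), and the cluster 11 side fell short of 1.5-fold when only cells of 1000 or more genes and up to 5% mitochondrial UMIs were kept (-0.56) and when thinned (-0.58). The other sides stayed past 1.5-fold in the alternatives run on them.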

How the results depend on the processing

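No paired analysis was possible because the labels give no replicate numbers and each condition has 1 library, so no replicate could be left out either. Over the epithelial clusters, 4 pairs were called higher and 4 lower. With no filter on low levels 20 of 76 pairs were higher and 4 lower, where 17.6% and 11.5% of all pairs were so. With a ratio of 1.5 as the call 14 of 49 were higher and 8 lower, where 18.0% and 23.1% of all pairs were so. Under the other alternatives run on the clusters the counts stayed between 3 and 5 higher and at 4 lower. In all epithelial cells summed, the 1 member called higher (*Itga3*) became 0 under median of ratios scaling, thinning to 5000 UMIs, the mean over cells and the cluster makeup of UW, 3 of 8 with no filter (22.8% of all genes) and 2 of 5 at a ratio of 1.5 (24.6% of all genes), and no alternative called a member lower. TMM scaling moved the log2 ratios of all genes by between -0.38 (cluster 7) and 0.13 (cluster 9) in the epithelial clusters, and by -0.22 over all epithelial cells, where *Itgav* went from 0.12 to -0.10. No called ratio changed sign. The 7 calls other than *Itga3* in cluster 3 held under all 7 alternatives computed for them. Leaving out the cells with the 52 shared barcodes, an alternative chosen after seeing the data, moved no ratio by more than 0.0205. With pooled mice and 1 library a condition, the spread between mice is unknown, and genes below 10 CPM, such as *Itga5* and *Itgb8* in the epithelium, could not be called.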
